A study of Mus musculus with 28 samples.

Results

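The levels of 10 imprinted genes were followed in the mouse cerebellum after birth, namely Nnat, H19, Peg3, Mest, Dlk1, Plagl1, Ndn, Snrpn, Cdkn1c and Grb10. The list was chosen by the values of Nnat on the cross-stage arrays, which were lower in older pups, and each gene was matched to the array by its current or an older symbol. All 10 had a probe, 1 probe each, and all 10 passed the requirement of a value on at least 14 of the 28 arrays, out of 23219 genes and unnamed probes of which 22225 passed it. The decrease of Nnat that chose the list, and with it every postnatal change given for these 10 genes, is given as a description from which nothing is inferred. The comparison of Ts1Cje with euploid mice was not used to choose them, although earlier results of these data were known when the list was made.

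Each of the 28 two-colour arrays carried cerebellar RNA of 1 Ts1Cje mouse in one dye and of 1 euploid mouse in the other. Ts1Cje mice carry an extra copy of the distal part of chromosome 16, translocated onto the end of chromosome 12, where a short segment is lost, and euploid mice of the same B6EiC3SnF1/J A/a strain have the normal chromosome set. The labels give this strain name, whereas the study's methods name a mixed B6C3SnF1/Orl background. Mice were taken at birth (P0) or on postnatal day 3 (P3), 7 (P7) or 10 (P10), with 6, 8, 8 and 6 mice of each genotype, 56 in all. The design held 16 same-stage arrays (4 at each age) and 12 cross-stage arrays (4 for each of the steps P0 to P3, P3 to P7 and P7 to P10). In each step the older mouse was Ts1Cje on 2 arrays and euploid on 2. By the design text of the series, the mice on an array were of opposite sex, but the labels give no sex. Xist was higher in the Ts1Cje mouse on 13 and lower on 13 of the 26 arrays with a value. The values are log2 ratios, so that negative values mean less RNA in the first-named mouse, and levels cannot be compared between genes. The labelled tissue could not be checked by level for the same reason. Probes of 7 of 7 granule neuron, 8 of 8 granule cell precursor and 6 of 7 Purkinje cell markers passed the requirement above. So did 10 of 10 markers of meninges and fibroblasts and 22225 of all 23219 features, so that passing it cannot check the tissue.

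The arrays were not equally informative. They held between 11354 and 23972 values with a standard deviation (SD) between 0.421 and 1.76, and the array with the fewest values, Ts1Cje P10 against euploid P7 replicate 2, was also the widest. Arrays Ts1Cje P10 against euploid P10 replicate 4 and Ts1Cje P0 against euploid P0 replicate 1 came next with 16898 and 18114 values. For array Ts1Cje P7 against euploid P7 replicate 4 the labels disagree on the age of the euploid mouse, which was taken as P7. The changes below come from the study's analysis of variance refitted on all 28 arrays, with limma's moderation of the variance, and p-values are adjusted over all 22225 features by the Benjamini-Hochberg procedure with a threshold of 0.05.

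Imprinted genes are transcribed mostly from the copy inherited from one parent, as set by methylation laid down in the germ line. Many of them act on growth before and after birth, and several are abundant in the developing brain. Nnat, Peg3, Mest, Dlk1, Plagl1, Ndn and Snrpn are known to be expressed from the paternal copy, and H19 and Cdkn1c from the maternal copy. Grb10 is expressed from the maternal copy in most tissues and from the paternal copy in neurons. The arrays measured the sum of both copies and so carry no information on the parent of origin. None of the 10 genes lies on chromosome 16. Dlk1 lies on chromosome 12, H19, Peg3, Ndn, Snrpn and Cdkn1c lie on chromosome 7, and Nnat, Mest, Plagl1 and Grb10 lie on chromosomes 2, 6, 10 and 11.

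Promoter windows from RefSeq (build GRCm38.p6), 250 bases before to 50 bases from the start of transcription on, were found for 8 of the 10 genes, 14 windows in all because Mest, Snrpn and Grb10 have several starts. Windows of Nnat, Ndn and Snrpn are shown because they hold a motif that was noticed on reading the sequences of the 8 genes. Capitals mark CGCATGCG, the core of the motif known for nuclear respiratory factor 1, which reads the same on both strands. Nnat is shown at chr2:157559828-157560127 (+ strand), Ndn at chr7:62348027-62348326 (+ strand) and Snrpn at chr7:60005150-60005449 (- strand), each from 5′ to 3′ on the gene's own strand.
Nnat: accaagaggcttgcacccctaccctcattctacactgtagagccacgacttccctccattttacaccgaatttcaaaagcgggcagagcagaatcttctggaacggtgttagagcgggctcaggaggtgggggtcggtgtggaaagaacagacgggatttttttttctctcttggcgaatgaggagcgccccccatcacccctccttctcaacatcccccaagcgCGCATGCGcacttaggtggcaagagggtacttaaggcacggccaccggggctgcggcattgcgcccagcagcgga
Ndn: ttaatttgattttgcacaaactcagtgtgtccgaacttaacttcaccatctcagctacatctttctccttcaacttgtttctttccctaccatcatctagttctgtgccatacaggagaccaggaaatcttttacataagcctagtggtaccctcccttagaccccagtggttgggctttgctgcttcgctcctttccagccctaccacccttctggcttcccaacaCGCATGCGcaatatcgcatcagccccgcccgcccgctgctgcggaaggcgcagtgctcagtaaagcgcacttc
Snrpn: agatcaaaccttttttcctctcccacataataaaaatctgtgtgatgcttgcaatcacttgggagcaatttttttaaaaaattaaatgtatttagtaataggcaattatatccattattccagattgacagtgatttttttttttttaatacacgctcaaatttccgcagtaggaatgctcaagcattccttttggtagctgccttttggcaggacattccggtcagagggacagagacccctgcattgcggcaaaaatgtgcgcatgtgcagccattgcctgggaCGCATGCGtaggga
The core began 25 bases before the start of transcription in Nnat, 23 bases before it in Ndn and 36 bases after it in Snrpn. It was present in 6 of the 14 windows, all of them windows of these 3 genes, and the windows of Peg3, Mest, Dlk1, Plagl1 and Grb10 held none. All 4 Snrpn windows held it, and those not shown share long stretches of sequence with one another, so that they are not separate finds. Of all 32851 promoter windows of this length, 615 (1.87%) held it. Because the motif was picked from the windows of the listed genes, their share cannot be set against this one. Pairs of C followed by G, the substrate of DNA methylation, numbered 17 in the Nnat window, 11 in that of Ndn and 7 in that of Snrpn, where the median over all windows was 7. The Snrpn window shown is the one of its 4 with the most such pairs. A match of letters is a description of the sequence and was not tested for binding.

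Nnat encodes neuronatin, a small membrane protein of the endoplasmic reticulum that is abundant in newly formed neurons and acts on calcium stores. It was lower in the older mouse on each of the 11 cross-stage arrays with a value. From P0 to P3 the values were -0.11, -0.42, -0.48 and -0.27 (mean -0.32 ± 0.166, SD, n = 4). From P3 to P7 they were -1.40, -1.08, -1.41 and -1.47 (mean -1.34 ± 0.176, SD, n = 4). From P7 to P10 they were -0.40, -0.50 and -0.93 (mean -0.61 ± 0.282, SD, n = 3). The 4 arrays of the middle step thus lay below all others, with a gap between -1.08 and -0.93. No array compared P0 with P7 or P10 directly, so that longer changes are sums of the steps.

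In the fit over all arrays the P3 to P7 change of Nnat was -1.34 ± 0.173 (standard error, SE), a ratio of 0.395 with a 95% interval of 0.308 to 0.508. Over the whole interval the change was -2.28 ± 0.319 (SE), so that the P10 level was 0.205 times the P0 level (95% interval 0.130 to 0.325). The same course was fitted in both genotypes. It was -2.23 ± 0.335 (SE) in euploid mice and -2.34 ± 0.346 (SE) in Ts1Cje mice. The spread of Nnat around the fit was narrow, with a residual SD of 0.27 where the median over all features was 0.819.

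**Figure D1:**
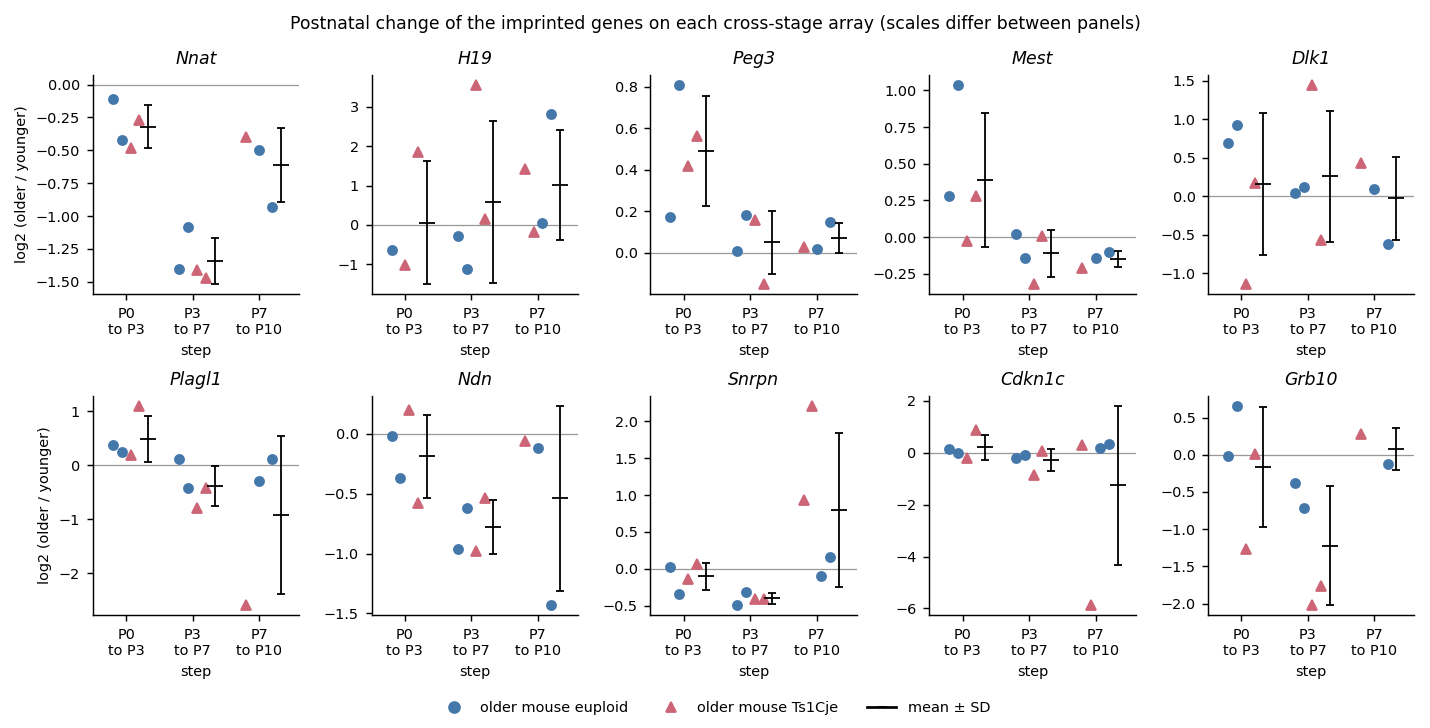
Log2 ratio of the older over the younger mouse for the 10 imprinted genes on each cross-stage array (y axis, a scale of its own for each gene) by step (x axis). Circles are arrays whose older mouse was euploid, triangles those whose older mouse was Ts1Cje, and the bar gives mean ± SD. All 11 Nnat values lie below 0, and those of the P3 to P7 step lie between -1.47 and -1.08.

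Ndn and Snrpn, both from the imprinted domain of chromosome 7 whose human counterpart is lost in Prader-Willi syndrome, also had lower values at P7 than at P3. Ndn encodes necdin, a growth suppressor of postmitotic neurons. Its 4 values of the P3 to P7 step were -0.96, -0.62, -0.98 and -0.54 (mean -0.78 ± 0.228, SD, n = 4). At the step before, 3 of 4 values were below 0 (-0.02, -0.37, 0.20 and -0.58), and at the step after, all 3 were (-0.06, -0.12 and -1.43). Ndn was thus uniformly lower at the middle step, whereas its P7 to P10 mean of -0.54 ± 0.774 (SD, n = 3) rested on the single array Ts1Cje P7 against euploid P10 replicate 2. The fitted change of Ndn from P0 to P10 was -1.46 ± 0.386 (SE), a ratio of 0.364, and -1.06 ± 0.366 (SE) without that array.

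Snrpn encodes SmN, a core protein of the spliceosome that replaces SmB in neurons. Its values at P7 relative to P3 were -0.49, -0.31, -0.41 and -0.41 (mean -0.40 ± 0.0737, SD, n = 4), a change smaller than those of Nnat and Ndn and with the least spread of the 10 genes at that step. From P0 to P3 its values lay on either side of 0 (0.03, -0.34, -0.14 and 0.06). From P7 to P10 they were 0.93, 2.21, -0.10 and 0.16, the highest on the array with the fewest values. Both high values came from arrays whose older mouse was Ts1Cje. Snurf, which shares its transcript with Snrpn, had a fitted P3 to P7 change of -0.24 ± 0.169 (SE, adjusted p = 0.634) on a probe of its own.

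**Figure D2:**
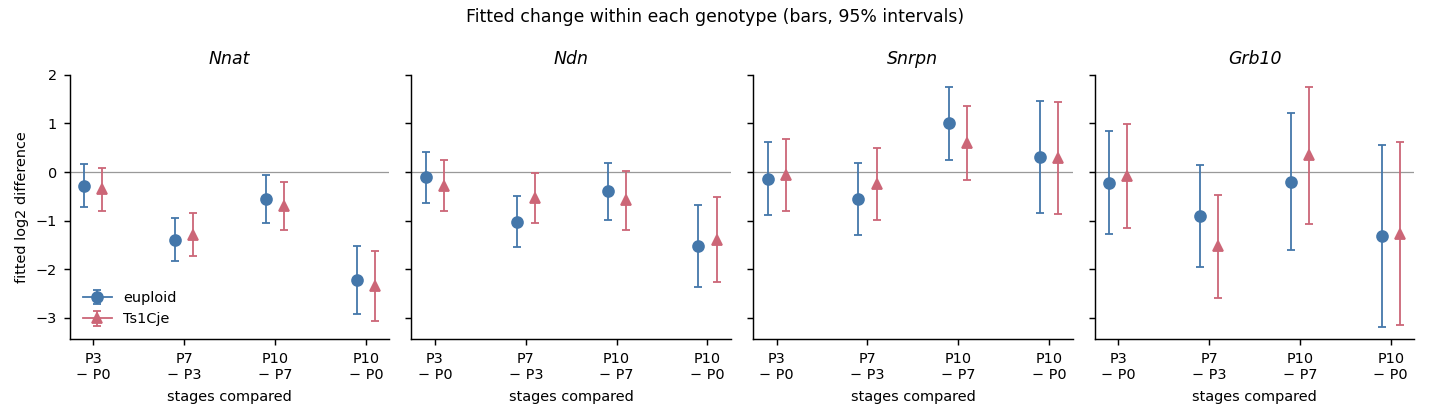
Fitted log2 difference between stages (y axis) in euploid (circles) and Ts1Cje mice (triangles) for Nnat, Ndn, Snrpn and Grb10, by the stages compared (x axis), with 95% intervals as bars. The P10 minus P0 change of Nnat was -2.23 in euploid and -2.34 in Ts1Cje mice, and the intervals of the genotypes overlap for each of the 4 genes at each comparison shown.

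Grb10, an adaptor that binds the insulin and IGF1 receptors and restrains growth, was the fourth gene with lower values in all 4 older mice of the P3 to P7 step. The values were -0.38 and -0.71 where the older mouse was euploid and -2.02 and -1.76 where it was Ts1Cje (mean of all -1.22 ± 0.795, SD, n = 4). The mice on these arrays also differed in genotype, so the Ts1Cje differences at P3 and P7 enter the gap between the pairs of values. The gap is not a measure of how the postnatal change differed between genotypes. The F test of that, described below, gave an unadjusted p of 0.676 for Grb10. From P0 to P3 its values ranged from -1.27 to 0.66, and only 2 arrays of the P7 to P10 step gave a value (0.28 and -0.12). Grb10 varied more widely around the fit than Nnat, with a residual SD of 0.876.

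Peg3, Mest and Plagl1 form, with Cdkn1c, Dlk1 and H19, a set of imprinted genes known to be expressed together in growing tissues and to fall in the first weeks of life in several mouse organs. On these arrays their values differed from gene to gene. Peg3, a zinc finger protein, was higher at P3 than at P0 on all 4 arrays (0.17, 0.81, 0.42 and 0.56, mean 0.49 ± 0.267, SD) and near 0 at the later steps (range -0.15 to 0.18 over 7 arrays). Plagl1, a zinc finger protein that arrests the cell cycle and regulates other imprinted genes, was likewise higher at P3 on all 4 arrays (0.37, 0.25, 0.18 and 1.10). Its P7 to P10 values were -2.59, -0.29 and 0.11, so that the fitted change of -1.05 ± 0.411 (SE) depended on the lowest of them and was -0.15 ± 0.488 (SE) without that array, Ts1Cje P10 against euploid P7 replicate 1.

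Mest, related to hydrolase enzymes, had values between -0.03 and 1.04 from P0 to P3 and was slightly lower at P10 than at P7 on all 3 arrays (-0.21 to -0.10). Dlk1, a transmembrane protein related to the Notch ligands, had values on both sides of 0 at each step, from -1.14 to 1.45. Cdkn1c, the cyclin-dependent kinase inhibitor p57, lay between -0.88 and 0.88 on 11 of its 12 cross-stage arrays. The remaining value, -5.87 on Ts1Cje P10 against euploid P7 replicate 2, set its fitted P10 minus P0 change, which was -1.34 ± 1.01 (SE) with that array and 0.21 ± 0.436 (SE) without it. H19, a noncoding RNA transcribed beside Igf2, spread from -1.13 to 3.57 and had the widest residual SD of the 10 genes, 1.77.

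Of the 10 genes, 1 (Nnat) was past the adjusted threshold for the P3 to P7 change, where 1.26% of all features passed, and for the P10 minus P0 change, where 0.045% passed. No listed gene passed for P3 minus P0 (background 0.036%) or P10 minus P7 (background 0.0045%). Since the postnatal decrease of Nnat chose the list, nothing is read from these counts. For P3 to P7 the count was 2, with Ndn added, when Ts1Cje P7 against euploid P10 replicate 2 was left out.

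Markers of young neurons were compared over the same step as Nnat and Ndn. Of 6 such markers (Dcx, Stmn2, Tubb3, Gap43, Crmp1 and Dpysl3), 6 had a lower fitted value at P7 than at P3, from -0.65 to -0.12 with a median of -0.49, and none passed the adjusted threshold. Among 7 granule neuron markers 5 were higher (median 0.56, 1 passed), and among 5 oligodendrocyte markers 4 were higher (median 0.92, 1 passed). Lower values were not limited to young neurons. Of 8 endothelial and pericyte markers 7 were lower (median -0.37, 1 passed), and of 6 Purkinje cell markers 4 were lower (median -0.21, 1 passed). Of 8 granule cell precursor markers 3 were lower and 5 higher (median 0.25), and the 1 that passed, as lower, was Ccnd1. Of all features, 50.5% were lower at P7 than at P3 and 1.26% passed. Of 6 astrocyte and Bergmann glia markers 3 were higher and 3 lower (median 0.03), and 2 passed, as higher. Of 10 markers of meninges and fibroblasts 6 were higher (median 0.16), and 1 passed, as higher. Medians of the other lists lay between -0.20 for the choroid plexus and 0.90 for 4 erythroid markers, and none of their markers passed. The young neuron markers did not share one direction later. From P7 to P10, 3 of the 6 were higher and 3 lower (median 0.11), where Nnat and Ndn had fitted changes of -0.62 and -0.49. From P0 to P10, 2 of the 6 were higher and 4 lower (median -0.47). In whole cerebellum fewer cells of a type and less RNA per cell cannot be told apart. The part of a changing cell makeup in the values of Nnat, Ndn and Snrpn was not tested.

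Whether these genes differed with segmental trisomy was examined with the Ts1Cje minus euploid difference at each stage. None of the 10 genes passed the adjusted threshold for the mean difference over the 4 stages, against 4 of 22225 features (0.018%). None passed at P0 (background 0%), P3 (background 0.0045%), P7 (background 0%) or P10 (background 0%). With so few features passing, these counts do not show that the 10 genes were unmoved. At an unadjusted p below 0.05, 1 of the 10 genes stood out for the mean difference where 4.08% of all features did, and 1 of 10 at P7 where 1.73% did, Grb10 both times. At P0, P3 and P10 the count was 0 of 10, against 4.43%, 5.61% and 5.21% of all features. The mean difference was below 0 for 8 of the 10 genes with a median of -0.10, and below 0 for 50.6% of all features with a median of 0. The count depended on single arrays. With an array left out, the mean differences of Cdkn1c, H19 and Ndn reached 0.08, 0.15 and 0.01. It is therefore not read as a shared decrease.

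**Figure D3:**
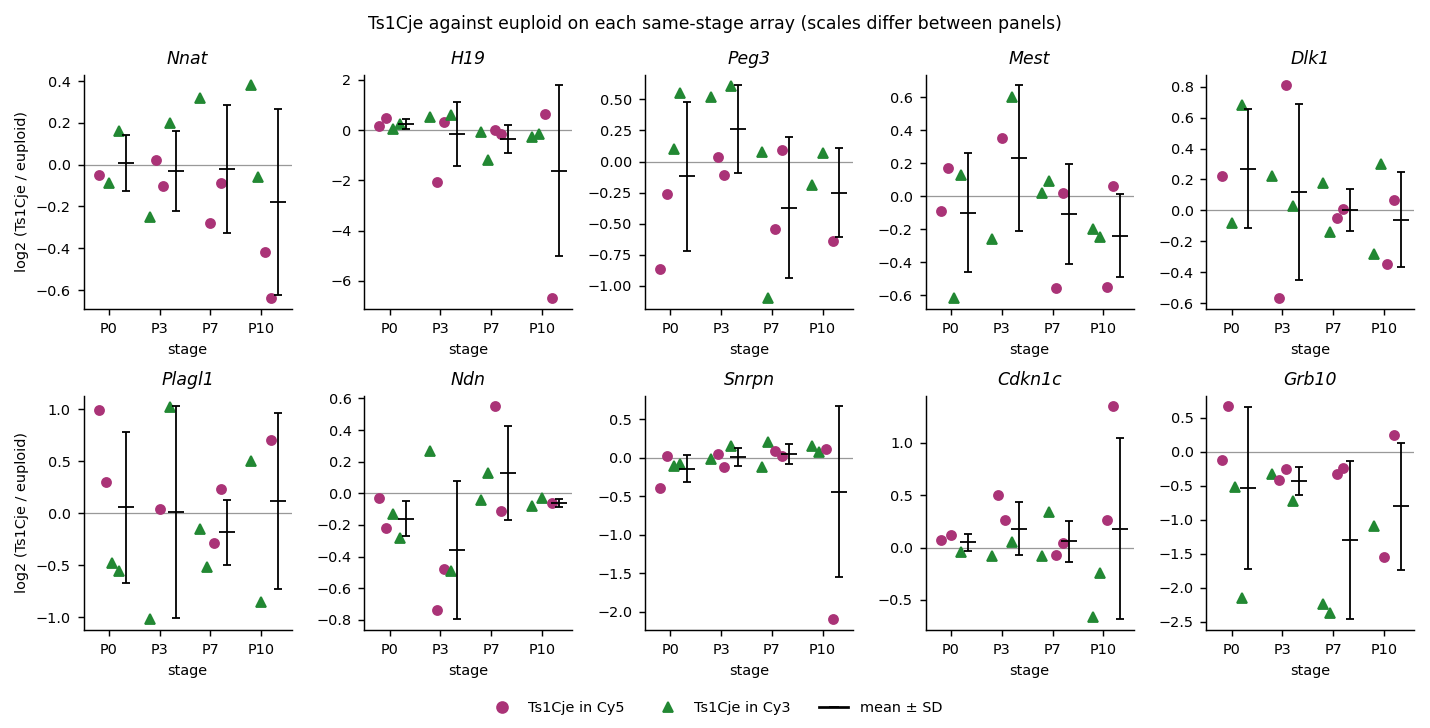
Log2 ratio of Ts1Cje over euploid for the 10 imprinted genes on each same-stage array (y axis, a scale of its own for each gene) by stage (x axis). Circles are arrays with Ts1Cje in Cy5, triangles those with Ts1Cje in Cy3, and the bar gives mean ± SD. Grb10 lies below 0 on 13 of 15 arrays, and H19 and Snrpn each hold 1 P10 value far below the others (-6.70 and -2.10).

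Nnat differed little between the genotypes. Its same-stage values ranged from -0.64 to 0.38 with a mean of -0.06 ± 0.279 (SD, n = 14), 9 of them below 0. The fitted mean difference was -0.04 ± 0.0716 (SE, adjusted p = 0.993), with a 95% interval of the ratio from 0.876 to 1.08. At P0 the 3 values were -0.05, -0.09 and 0.16, at P3 they were -0.25, 0.02, -0.10 and 0.20, and at P7 they were 0.32, -0.28 and -0.09. At P10 they were 0.38, -0.06, -0.42 and -0.64, where the 2 arrays with Ts1Cje in Cy5 gave the lower values. Over all same-stage arrays the mean was -0.22 ± 0.238 (SD, n = 7) with Ts1Cje in Cy5 and 0.10 ± 0.234 (SD, n = 7) with Ts1Cje in Cy3.

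Grb10 had the largest mean difference of the 10 genes. Its values in Ts1Cje relative to euploid mice were -0.12, 0.67, -0.52 and -2.16 at P0 and -0.33, -0.42, -0.25 and -0.72 at P3. They were -2.24, -2.38, -0.33 and -0.24 at P7 and -1.09, -1.55 and 0.25 at P10. All 8 arrays at P3 and P7 were thus below 0, whereas P0 and P10 each held 1 array above 0. The fitted mean difference was -0.61 ± 0.177 (SE), a ratio of 0.654 (95% interval 0.506 to 0.844), with unadjusted p = 0.00237 and adjusted p = 0.993, and did not pass the test over all features. The P7 difference was -1.03 ± 0.371 (SE, unadjusted p = 0.0112, adjusted p = 1). The values moved with the dye, with a mean of -1.35 ± 0.885 (SD) on the 7 same-stage arrays with Ts1Cje in Cy3, all below 0, and of -0.25 ± 0.639 (SD) on the 8 with Ts1Cje in Cy5, 6 below 0. With a term for the dye the mean difference was -0.70 ± 0.138 (SE, adjusted p = 0.165).

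The other genes of the growth group had smaller mean differences. They were -0.15 ± 0.145 (SE) for Plagl1, -0.11 ± 0.076 (SE) for Mest, -0.09 ± 0.091 (SE) for Peg3 and 0.00 ± 0.125 (SE) for Dlk1, each with an adjusted p of 0.993 or 1. Dlk1, on the chromosome that received the translocated segment, had a 95% interval of its log2 difference from -0.26 to 0.26. At P0 its same-stage values were 0.22, -0.08 and 0.68, whereas the fit over all arrays gave -0.10 ± 0.313 (SE). The study's paper reports higher Dlk1 in the dissected external granule cell layer of newborn Ts1Cje mice, a tissue that these arrays did not measure apart. Cdkn1c (-0.15 ± 0.231, SE) and H19 (-0.14 ± 0.33, SE) were measured too loosely for a difference of this size to be detectable. The sign for Cdkn1c was not stable. Its same-stage values had a mean of 0.12 ± 0.434 (SD, n = 15), 9 of them above 0, and its fitted difference reached 0.08 with an array left out. H19 at P10 was -0.29, -0.14, 0.63 and -6.70, and the fitted P10 difference of -1.51 ± 0.764 (SE, adjusted p = 0.961) became 0.03 ± 0.632 (SE) without the 3 arrays with the fewest values.

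The neuronal genes Ndn and Snrpn also differed little. Ndn was below 0 on 12 of 15 same-stage arrays, among them all 4 at P0 (-0.03, -0.22, -0.13 and -0.28) and all 3 at P10 (-0.08, -0.03 and -0.06). Its fitted mean difference, which also uses the cross-stage arrays, was -0.02 ± 0.0859 (SE, adjusted p = 0.996). Snrpn had a fitted mean difference of 0.03 ± 0.116 (SE, adjusted p = 0.996) and values between -0.39 and 0.20 on 15 of 16 same-stage arrays. The remaining value was -2.10 at P10, on replicate 4, the array that also held the lowest H19 value.

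**Figure D4:**
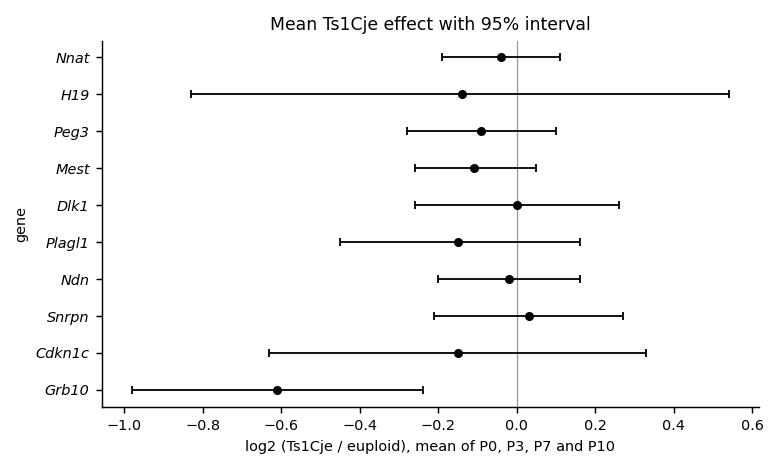
Fitted Ts1Cje minus euploid log2 difference averaged over P0, P3, P7 and P10 (x axis) for each of the 10 genes (y axis), with the 95% interval as a bar. The interval of Grb10 runs from -0.98 to -0.24 and those of the other 9 genes include 0.

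A change of the Ts1Cje difference from stage to stage, which is also a difference of the postnatal course between the genotypes, was tested with 1 F test per gene. None of the 10 genes passed, and none of 22225 features did (0%). At an unadjusted p below 0.05 the count was 0 of 10, against 3.08% of all features, and the smallest unadjusted p was 0.25, for H19. For Nnat the unadjusted p was 0.943, and its P10 minus P0 change differed by -0.11 between the genotypes. The parallel figures were 0.12 for Ndn, -0.02 for Snrpn and 0.05 for Grb10.

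A further 72 genes known as imprinted in mice were listed, of which 64 were tested. None passed the adjusted threshold for the mean Ts1Cje difference, at any stage, or for any of the 3 steps or P10 minus P0, where between 0% and 1.26% of all features passed. At an unadjusted p below 0.05, 3 were higher and 0 lower in Ts1Cje mice on average, out of 64, where 4.08% of all features did in either direction, with a list median of 0.03. They were Zdbf2 (0.69 ± 0.281, SE, 17 arrays), Osbpl5 (0.28 ± 0.119, SE) and Ampd3 (0.28 ± 0.125, SE), each with an adjusted p of 0.993.

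Igf2, the fetal growth factor that shares its enhancers with H19, came closest to the threshold among them. It was higher at P3 than at P0 on all 4 arrays (1.11, 2.73, 1.37 and 2.42), with a fitted change of 1.91 ± 0.357 (SE, adjusted p = 0.052). The value did not pass the threshold. It passed when any 1 of 10 of the arrays was left out, Ts1Cje P10 against euploid P7 replicate 2 among them, and not when any other array was. Over the alternatives the fitted P0 to P3 change of Igf2 ranged from 1.06 to 2.16. At the later steps its fitted changes were -0.10 ± 0.357 (SE) and -0.21 ± 0.419 (SE). H19, its neighbour, had values of -0.64, -1.03 and 1.85 at the P0 to P3 step. In brain Igf2 is known to come from the meninges, the choroid plexus and blood vessels. Of 10 markers of meninges and fibroblasts 6 were higher at P3 than at P0 (median 0.26, 0 passed), of 8 endothelial and pericyte markers 5 were higher (median 0.28, 0 passed), and of 8 choroid plexus markers 3 were higher (median -0.11, 0 passed). Their part in the value of Igf2 was not tested.

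Over the whole interval from P0 to P10 the other imprinted genes with the smallest p among those higher at P10 were Ampd3 (1.64 ± 0.577, SE, adjusted p = 0.491), Igf2, Osbpl5, Nap1l5 and Impact. Among those lower at P10 they were Peg10 (-1.69 ± 0.856, SE, adjusted p = 0.641), Pon3, Tssc4, Gnasas1 and Gatm. Listed imprinted genes within 1 Mb of Nnat, Ndn, Snrpn, Dlk1 and Grb10 were set beside them. Blcap, in whose intron Nnat lies, had a P3 to P7 change of 0.24 ± 0.492 (SE) where Nnat had -1.34. Magel2, Mkrn3 and Peg12, the neighbours of Ndn, had changes of 0.35 ± 0.245, -0.10 ± 0.317 and 0.37 ± 0.29 (SE), and Ube3a and Ipw, neighbours of Snrpn, had -0.04 ± 0.235 and 0.67 ± 0.266 (SE). Ipw, a noncoding RNA, was higher at P7 on all 4 arrays, and its adjusted p was 0.25. Meg3, the maternally expressed RNA beside Dlk1, was at 0.58 ± 0.281 (SE, adjusted p = 0.384) and passed when Ts1Cje P10 against euploid P7 replicate 2 was left out. Rian, also a maternally expressed RNA beside Dlk1, was lower at P7 on all 4 arrays (-0.67 ± 0.267, SE, adjusted p = 0.258), and Mirg and Dio3 were at 0.24 ± 0.243 and 0.67 ± 0.957 (SE). Ddc and Cobl beside Grb10 were at 0.27 ± 0.945 and 0.85 ± 0.71 (SE).

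Of 19 genes known to work with the 10, among them receptors and binding proteins of the IGF pathway, cyclins and spliceosomal Sm proteins, none passed for the mean Ts1Cje difference (median -0.05, background 0.018%) and 1 passed for P3 to P7 (background 1.26%). That gene was Ccnd1, also the granule cell precursor marker that passed above, which fell by 2.45 on the log2 scale (SE 0.371, adjusted p = 0.00204). It encodes cyclin D1, which drives precursor proliferation and whose kinase Cdkn1c can inhibit. Igf1r, Insr and Igf2r, the receptors of the pathway on which Grb10 and Igf2 act, had P3 to P7 changes of -0.15 ± 0.283, 0.20 ± 0.28 and -0.13 ± 0.54 (SE).

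The genes whose log2 ratios were most like those of Nnat over the arrays shared were Sh3kbp1, Vim, Cacng4, Fscn1 and Basp1, with uncentred correlations of 0.87, 0.86, 0.84, 0.82 and 0.82 over 24 or 25 arrays. Vim encodes the intermediate filament vimentin of glia and progenitors, Fscn1 an actin-bundling protein of growth cones, Basp1 a growth cone membrane protein, Cacng4 an auxiliary subunit of AMPA receptors and Sh3kbp1 an endocytic adaptor. Their fitted P3 to P7 changes ranged from -1.17 for Fscn1 to -0.72 for Basp1, all smaller than that of Nnat. The most opposite were Trim65, Mtmr4 and 4933438B17Rik, with correlations of -0.82, -0.78 and -0.77. Among 8091 symbols compared, Ndn ranked 44 with a correlation of 0.69, Snrpn ranked 520 with 0.42 and Mest ranked 2359 with 0.15. Cdkn1c (-0.03), H19 (-0.12), Dlk1 (-0.12) and Peg3 (-0.14) ranked 4203, 5079, 5165 and 5351. Grb10 and Plagl1 were not compared, because they shared values with Nnat on fewer than 24 arrays. These correlations describe arrays that share dyes and steps and carry no test.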

How the data were processed

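Cerebellar RNA of 56 mice was hybridised to 28 two-colour pangenomic mouse arrays. The deposited values are the authors' log2 ratios of Cy5 over Cy3, from background-subtracted median pixel intensities normalised within each array by local LOWESS, with weak, irregular and control spots removed by the authors. Each ratio was turned to Ts1Cje minus euploid, or older minus younger. Of 25344 probes, 20626 had 1 symbol, 4718 none and 0 several, and 257 control spots were left out. Symbols were updated through accessions (15685) or older symbols (1694), and probes of a gene were averaged. Precision was limited by the number of mice, and the arrays also differed in the number and spread of their values.

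The 7-parameter analysis of variance of the study's methods (3 stage steps, 4 Ts1Cje differences) was fitted by least squares with limma 3.58.1 variance moderation in R 4.3.3, for features with values on at least 14 arrays and 5 residual degrees of freedom, after tests on simulated data. Each array held different mice, and the SD and SE include their spread. The members and lists were chosen with earlier results of these data known. Named were every listed member, the 3 other imprinted genes with the smallest p for the mean Ts1Cje difference and up to 5 per direction for P10 minus P0, and the 5 genes most like and 3 most opposite to Nnat over at least 24 shared arrays. Neighbours, Igf2 at P3, Ccnd1 and the receptors were named from the lists after their values were seen. Alternatives covered the dye, moderation, arrays used, array scale and weights, filters, probes, Xist ratio, title prefix and each array left out.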

Additional observations from a re-analysis of the deposited data

Results flagged for a closer look

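Within groups of 4 arrays, 52 groups were examined for a single array far from the other 3, and 6 were found, where chance alone gives about 5% of groups. H19 held 3 of them. Its value at P10 was -6.7 on Ts1Cje P10 against euploid P10 replicate 4, with the others between -0.29 and 0.63. Its value at P3 was -2.06 on replicate 2, with the others between 0.32 and 0.6, and at P7 it was -1.17 on replicate 2, with the others between -0.17 and 0.02. Snrpn at P10 was -2.1 on the same array as the lowest H19 value, with the others between 0.08 and 0.15. Cdkn1c from P7 to P10 was -5.87 on Ts1Cje P10 against euploid P7 replicate 2, the array with the fewest values, with the others between 0.19 and 0.34. Mest at P7 was -0.56 on replicate 3, with the others between 0.02 and 0.09.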

How the results depend on the processing

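The counts of the 10 genes past the threshold for the Ts1Cje differences, 0 in each, were 0 under every alternative that could be fitted. For P7 minus P3 the count of 1 (Nnat) became 2, with Ndn added, without moderation, with array weights and, chosen after seeing the data, without the 3 arrays with the fewest values. It ranged from 1 to 2 when each array was left out. It was 0 with values required on all 28 arrays, where Snrpn was the only 1 of the 10 genes tested, and within arrays titled ASJ and arrays titled ATJ. For P10 minus P0 the count of 1 (Nnat) became 0 in those 3 settings and with the Xist ratio as covariate, which drops 2 arrays. Among other imprinted genes the count of 0 for P3 minus P0 became 1 (Igf2) with a dye term, without moderation and without the 3 arrays, and ranged from 0 to 1 with each array left out. For P7 minus P3 it became 1 (Meg3) with array weights and without the 3 arrays, and ranged from 0 to 1 with each array left out, as did P10 minus P7 (Osbpl5). Why these counts moved was not tested. Of the 90 fitted values of the 10 genes, 49 took the other sign under at least 1 alternative, and none of these was past the threshold in the fit on all arrays. Among them were H19 P10 minus P0 (1.55, lowest -1.6), Snrpn P10 minus P7 (0.8, lowest -0.11) and Plagl1 at P3 (0.06, lowest -1.02). Over all features, the P7 minus P3 calls numbered 280, and 54 with arrays scaled to equal spread, 625 without moderation, 1027 with array weights, 79 with the Xist ratio, 635 without the 3 arrays and 5 on ATJ arrays. The mean Ts1Cje calls numbered 4, and 15 with array weights. Arrays of equal age gave no postnatal change, and each of the 10 genes had 1 probe. No paired analysis was possible because the replicate numbers were given in accession order and pair no samples, and the labels name no litter.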
